A study of Saccharomyces cerevisiae with 36 samples.

Results

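The genes of 10 proteins that remove superoxide and peroxides, or keep such enzymes reduced, were followed in budding yeast: the superoxide dismutases SOD1 and SOD2, the catalases CTT1 and CTA1, the glutathione peroxidase GPX1, the glutaredoxin GRX2, the thioredoxin TRX2 and the peroxiredoxins TSA1, TSA2 and PRX1. They are named by symbol, a choice made with earlier results of these data known, and all 10 were found, each with 1 probe printed as 2 spots, among 5315 gene symbols on the arrays. Their systematic names are YJR104C (SOD1), YHR008C (SOD2), YGR088W (CTT1), YDR256C (CTA1), YKL026C (GPX1), YDR513W (GRX2), YGR209C (TRX2), YML028W (TSA1), YDR453C (TSA2) and YBL064C (PRX1). Probe sequences were not analysed here, so part of the signal of a probe may come from a close paralog, in particular between TSA1 and TSA2, TRX2 and TRX1, and GRX2 and GRX1.

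Superoxide dismutases turn superoxide, a by-product of respiration, into hydrogen peroxide. Catalases split hydrogen peroxide into water and oxygen, whereas peroxiredoxins and glutathione peroxidases reduce peroxides with electrons that pass from NADPH through thioredoxin or glutathione. Yeast cells that run out of glucose switch to respiration and then enter a quiescent state (G0), for which resistance to oxidants is a known hallmark.

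mRNA was measured on 36 two-colour arrays of 70-mer probes, 2 for each of 18 strain groups, and on every array a strain was hybridised together with a common reference RNA, which the series text describes as coming from 1 wild-type culture. In 7 groups (14 arrays) non-RITE strains of the BY4742 background (MATα) lacked subunits of the NuB4 complex: the histone acetyltransferase Hat1, its partner Hat2 or the nuclear chaperone Hif1. The genotypes were hat1Δ, hat2Δ, hif1Δ, hat1Δhat2Δ, hat1Δhif1Δ, hat2Δhif1Δ and the triple deletion, labelled hat1-del and so on, and they were harvested in mid-log phase from synthetic complete medium with glucose. In 3 groups (6 arrays) growing wild-type RITE strains carried untagged histone H3 (wt-rite), H3-HA or H3-T7. In 8 groups (16 arrays) RITE strains were starved in saturated rich medium: wild type (wt-starved), hat1Δ, hat2Δ, hif1Δ, hat1Δhif1Δ, hat2Δhif1Δ, and 2 strains with lysines 5 and 12 of histone H4 replaced by glutamine (H4K5,12Q) or arginine (H4K5,12R). RITE (recombination-induced tag exchange) is a genetic pulse-chase in which an estrogen-regulated Cre recombinase, driven by the TDH3 promoter, exchanges an HA tag on H3 for a T7 tag. All RITE strains are MATa, carry a bar1 HisG allele and keep a single H3 and a single H4 gene. The growing tagged strains have a fixed tag, whereas the starved ones carry the exchangeable HA tag and, per the methods, were harvested as in the turnover experiments, in which estradiol induces the exchange. Auxotrophic markers also differ between the growing and the starved RITE strains (trp1Δ and lys2Δ). The probe of BAR1 was high in RITE strains despite the listed allele, at 2.02 to 3.31 in starved cells. Medium therefore changed together with the growth state, and in the deletion series mating type, strain background and the H3 tag did so too. The tag also changed where starved wild type is set against the untagged growing strain. The parts of these factors cannot be told apart. The 2 arrays of a group came from independent cultures with the dyes swapped.

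The deletion labels held: the probes of HAT1, HAT2 and HIF1 lay at log2 ratios of -3.33 to -1.33 on every array of a strain lacking the gene, and at -1.21 to 0.21 where it was present. The a-specific mating genes were high in all RITE strains (mean log2 ratio 3.52 to 4.77 over 5 genes) and near 0 in the deletion series (-0.09 to 0.02), so the RITE samples, whose labels also name the MATα strain BY4742, did not match that label. Of 7 starvation markers, among them the small heat shock genes HSP12 and HSP26, the mean log2 ratio was 4.44 to 5.37 in starved cells and -0.05 to 0.26 in the growing deletion strains. In growing RITE cells it was 0.36 and 0.46 without a tag and 1.17 to 1.91 with a tag. These means hide differences between markers. In the growing deletion strains HSP12 was 0.87 to 1.73 and HSP26 was -0.84 to -0.32. In untagged growing RITE cells HSP12 was 2.23 to 2.30 and HSP26 was 0.228 to 0.445. The spot of ATG33 in the reference channel divided the arrays into 2 sets, 22 arrays with a net signal of 92.6 to 472.8 and 14 with -0.2 to 1.2. All growing deletion strains and the starved double and H4 mutants belonged to the set with signal, and the growing RITE strains and the starved wild type and single deletions to the other. Whether the reference RNA was the same in both sets was not tested. Levels below are log2 ratios of strain over reference (n = 2 arrays a group), so that a difference of 1 is a doubling; tests are limma's moderated test, with p-values adjusted by Benjamini-Hochberg over 6388 probes and called below 0.05. Because an amount of RNA is measured per total RNA of the culture, fewer expressing cells and less RNA per cell cannot be told apart.

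Most of the 10 genes were higher in starved than in growing cells, and the catalases and GPX1 changed most. In starved wild type against the mean of the 3 growing RITE strains, 8 of 10 were called higher and none lower, where 41.8% of all probes were called higher and 40% lower. In the 5 deletion genotypes measured in both states, 10 of 10 were called higher, where 46.5% of all probes were called higher and 45.3% lower, although SOD1 and TSA1 reverse under other scalings. The median difference of the 10 was 1.35 and 1.93 in these comparisons, beside 0.01 and 0.01 over all probes. The loess step centres the ratios of each array near 0. The median over all probes therefore cannot show a change common to most genes.

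**Figure D1:**
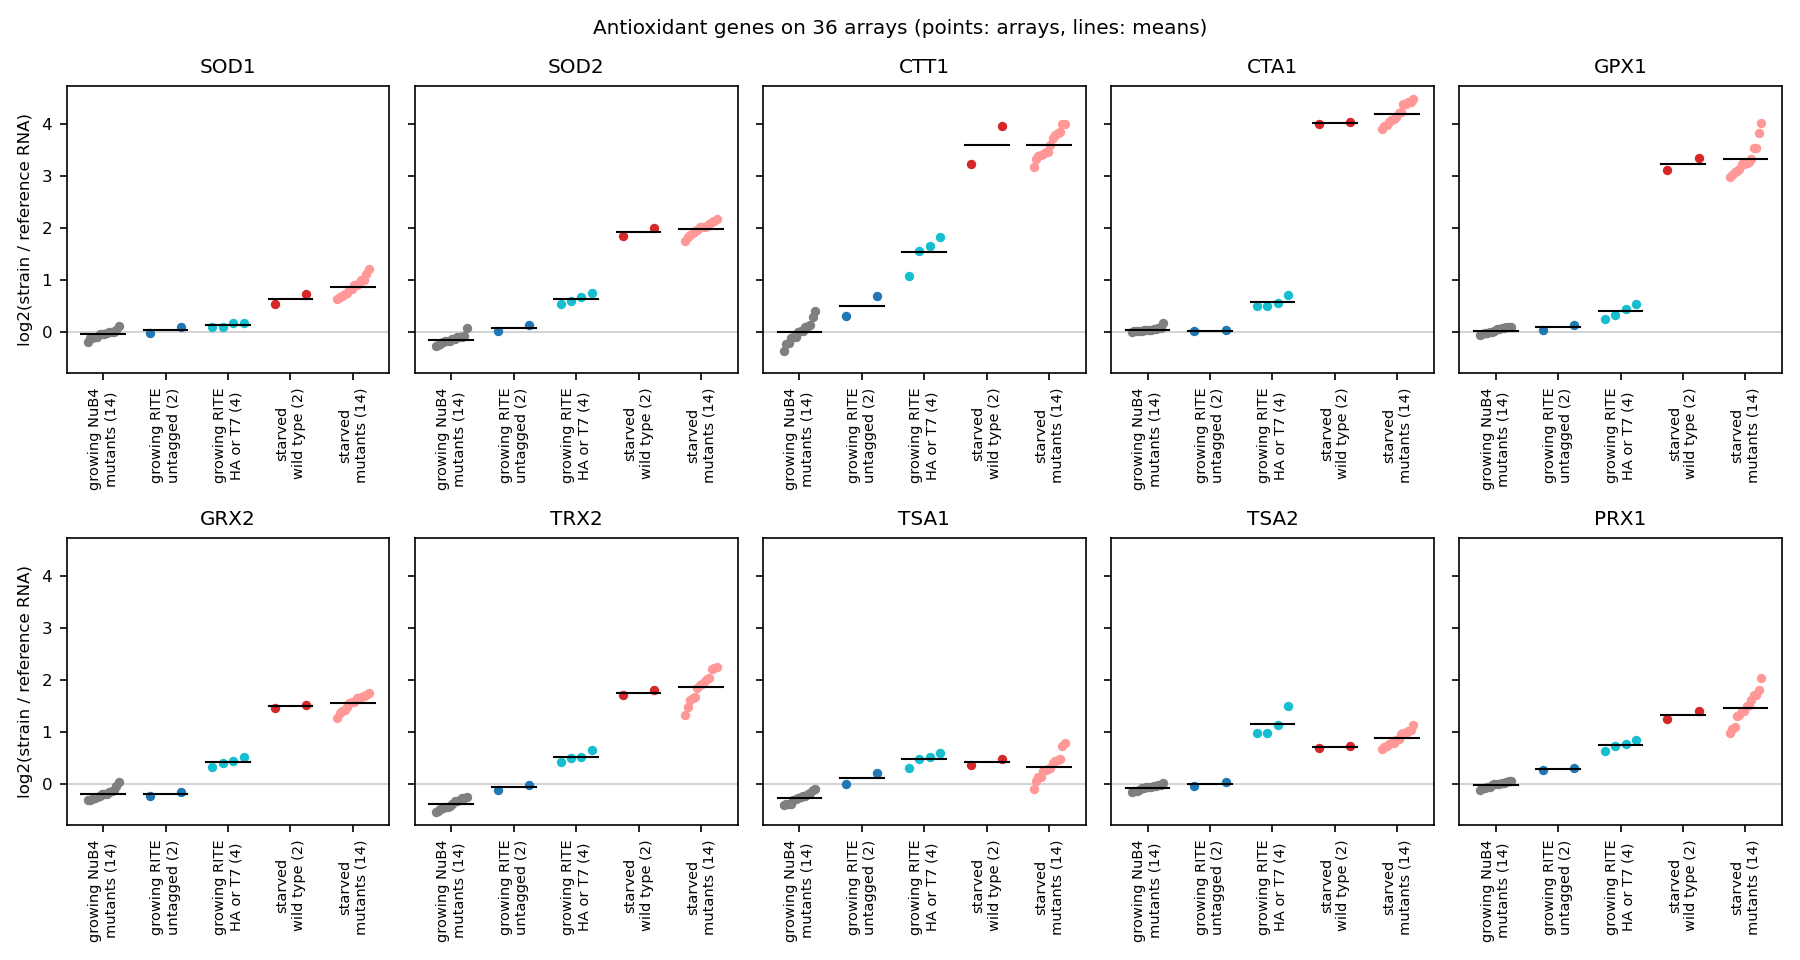
Log2 ratio of strain over reference RNA (vertical axis) for the 10 genes, with 1 point for each of the 36 arrays, sorted by value within 5 classes of strain and state (horizontal axis, number of arrays in brackets), and lines at the class means. Starved arrays stand far above all growing arrays for CTT1, CTA1 and GPX1, whereas the 4 tagged growing arrays reach or pass the starved ones for TSA1 and TSA2. Values are after loess, and other scalings reverse the starvation difference of SOD1 and TSA1.

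CTA1, the peroxisomal catalase, which also removes the peroxide made by fatty acid oxidation, showed the widest difference. Its log2 ratio was 0.02 and 0.04 in the 2 untagged growing RITE arrays, 0.51 and 0.71 with H3-HA, 0.56 and 0.51 with H3-T7, and 4.0 and 4.04 in starved wild type. No starved array was near a growing one: the 16 starved arrays ranged from 3.91 to 4.49 (median 4.12) and the 14 growing deletion arrays from -0.0026 to 0.17 (median 0.04). The starved wild type exceeded the growing RITE strains by 3.63 ± 0.09 (SE, limma adjusted p = 8.36e-17), and the starved deletion strains exceeded their growing counterparts by 4.13 ± 0.05 (limma adjusted p = 2.18e-22). The probe was dim in growing cells, with a net signal of 24.9 to 46.8 in the deletion series, inside the range of 8.1 to 51.9 that the probes of HAT1, HAT2 and HIF1 gave in strains lacking these genes. No fold is given, since the size depends on the offset added to the intensities: with a smaller offset the difference in the deletion strains was 4.49.

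CTT1, the cytosolic catalase and a known target of the general stress response, was graded among the growing strains. It stood at 0.70 and 0.32 in the untagged RITE arrays, at 1.09 and 1.84 with H3-HA and at 1.65 and 1.56 with H3-T7, and reached 3.24 and 3.97 in starved wild type. The 14 growing deletion arrays spanned -0.37 to 0.41 (median 0.01) and the 16 starved arrays 3.17 to 4.01 (median 3.54). Hence the states did not overlap, although the arrays of a group could lie well apart, as the starved wild type shows. The difference was 2.41 ± 0.18 in wild type (5.33-fold, limma adjusted p = 2.53e-10) and 3.51 ± 0.10 in the deletion strains (11.4-fold, limma adjusted p = 2.06e-17).

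SOD2, the manganese superoxide dismutase of the mitochondrial matrix, rose less than the catalases. Log2 ratios were 0.14 and 0.03 in untagged, 0.54 and 0.75 in H3-HA, 0.59 and 0.67 in H3-T7 and 1.85 and 2.01 in starved wild type. The growing deletion arrays ranged from -0.26 to 0.08 (median -0.15) and all 16 starved arrays from 1.76 to 2.18 (median 2.02), so no growing array reached a starved one. The difference was 1.48 ± 0.07 in wild type (2.79-fold, limma adjusted p = 1.32e-12) and 2.11 ± 0.04 in the deletion strains (4.32-fold, limma adjusted p = 1.38e-19).

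SOD1, the copper-zinc enzyme of the cytosol and intermembrane space, differed least among the genes called in wild type, and its direction was a matter of normalization. Log2 ratios were 0.10 and -0.01 in untagged, 0.18 and 0.09 in H3-HA, 0.09 and 0.18 in H3-T7 and 0.55 and 0.73 in starved wild type. The growing deletion arrays lay between -0.18 and 0.12 and the starved arrays between 0.55 and 1.22, again without overlap. After loess normalization the differences were 0.53 ± 0.06 (1.45-fold, limma adjusted p = 2.79e-07) in wild type and 0.82 ± 0.03 (1.77-fold, limma adjusted p = 1.6e-14) in the deletion strains. After median centring of each array, however, SOD1 was called lower in starved cells in both comparisons (-0.30 and -0.30), while the other 4 scalings gave 0.39 to 1.03 in wild type. SOD1, TRX2 and TSA1 have bright probes, at or above the 95.24th percentile of probe brightness on all 36 arrays.

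GPX1, a glutathione peroxidase known to be induced on glucose exhaustion, followed CTA1 closely. It was 0.05 and 0.14 in untagged, 0.26 and 0.55 in H3-HA, 0.45 and 0.34 in H3-T7, and 3.12 and 3.35 in starved wild type. Growing deletion arrays (-0.06 to 0.11) and starved arrays (2.99 to 4.02) were far apart, by 2.94 ± 0.13 in wild type (7.66-fold, limma adjusted p = 1.44e-13) and 3.19 ± 0.07 in the deletion strains (9.12-fold, limma adjusted p = 6.84e-19). The folds depend on the scaling, since the differences ran from 2.89 to 3.08 and from 3.19 to 3.45 over 6 scalings. Net signal in the growing deletion arrays was 52.7 to 149.6, next to the top of that of probes for deleted genes (51.9). Over the 18 group means GPX1 and CTA1 correlated with r = 0.997, which describes 2 genes separated mainly by state.

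The electron carriers rose as well. GRX2, a glutaredoxin that uses glutathione, was -0.16 and -0.24 in untagged, 0.33 to 0.51 over the 4 tagged arrays and 1.52 and 1.46 in starved wild type, a difference from the 3 growing strains of 1.27 ± 0.10 (2.42-fold, limma adjusted p = 4.58e-10). TRX2, the stress-induced cytosolic thioredoxin that reduces Tsa1, was -0.02 and -0.12 in untagged, 0.42 to 0.65 in tagged and 1.70 and 1.81 in starved wild type, a difference of 1.43 ± 0.08 (2.70-fold, limma adjusted p = 9.72e-12). For both genes tagged cells lay between untagged and starved cells. In the deletion strains the differences were 1.75 ± 0.05 for GRX2 (limma adjusted p = 8.7e-17) and 2.34 ± 0.05 for TRX2 (limma adjusted p = 1.42e-19). The size for TRX2 was the more sensitive to normalization: with print-tip loess it was 0.41 in wild type and 0.90 in the deletion strains, still called.

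**Figure D2:**
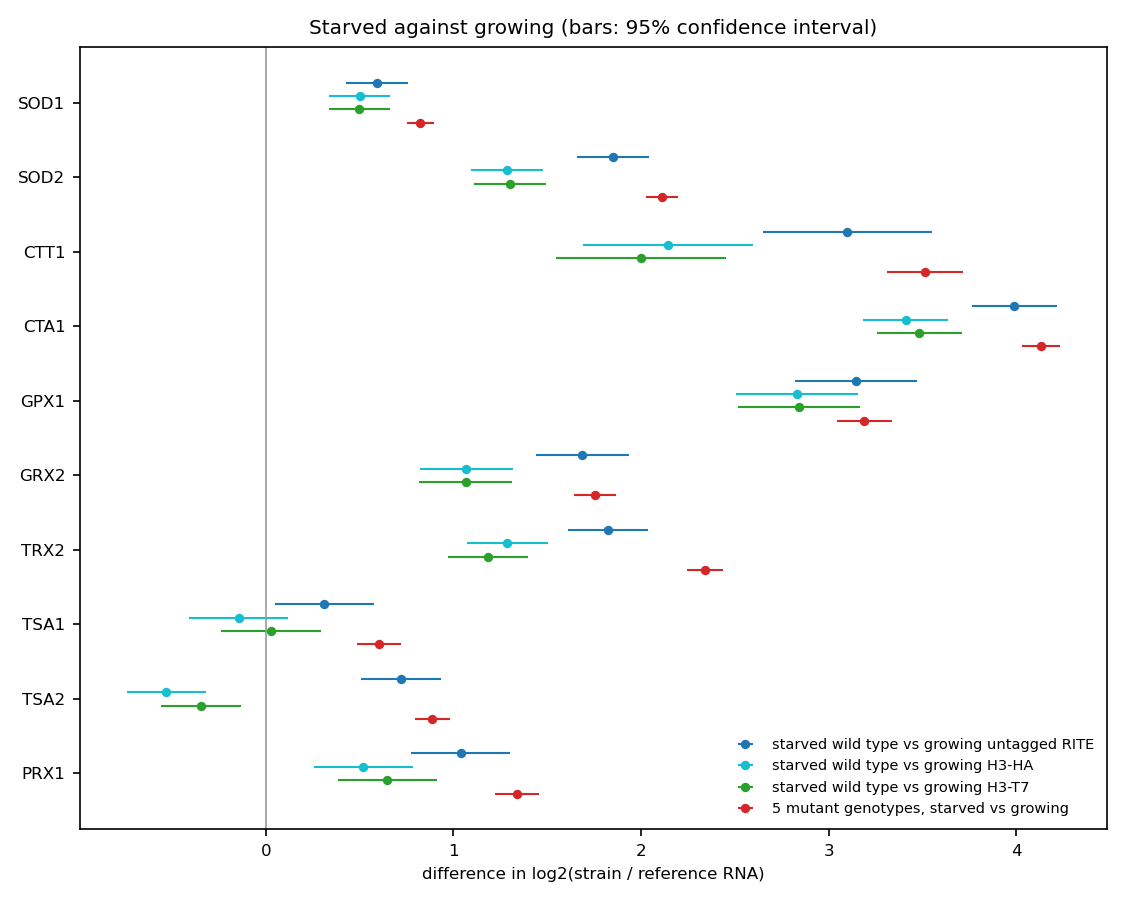
Difference between starved and growing cells in log2(strain / reference RNA) (horizontal axis) for each gene, with 95% confidence intervals as bars, for starved wild type against each growing RITE strain (2 arrays against 2) and for 5 deletion genotypes (10 against 10). TSA2 lies right of 0 against the untagged strain (0.72) and left of 0 against H3-HA (-0.53) and H3-T7 (-0.34). Values are after loess; with median centring SOD1 and TSA1 lie left of 0.

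The peroxiredoxins TSA2 and TSA1 behaved differently from the catalases. TSA2, the less expressed cytosolic paralog of Tsa1, was -0.05 and 0.03 in untagged growing cells, 0.73 and 0.69 in starved wild type, but 0.98 and 1.5 in growing H3-HA cells and 0.98 and 1.13 in growing H3-T7 cells. All 4 tagged growing arrays were thus above both starved wild-type arrays. Starved wild type was higher than the untagged strain by 0.72 ± 0.10 (1.65-fold, limma adjusted p = 2.62e-06), yet lower than H3-HA by 0.53 on the log2 scale (1.44-fold lower, limma adjusted p = 0.000103) and lower than H3-T7 (difference -0.34, 1.27-fold lower, limma adjusted p = 0.00455), where 41.7% of all probes were called higher against the untagged strain and 38.1% and 38.3% lower against H3-HA and H3-T7. Against the mean of the 3 growing strains these cancelled, to -0.05 ± 0.08 (95% interval -0.22 to 0.12, limma adjusted p = 0.575). The sign of this mean and its call were not stable, at -0.20 with print-tip loess (limma adjusted p = 0.0144, called lower), 0.09 with median centring, 0.03 without starved wild-type replicate b and 0.02 without H3-HA replicate b. In the deletion strains TSA2 was 0.89 ± 0.05 higher in the starved state (1.85-fold, limma adjusted p = 3.13e-13). There the starved strains carry the H3 tag and the growing ones do not, so tag and state cannot be told apart.

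TSA1, the major cytosolic peroxiredoxin and a chaperone under stress, did not pass the test against the 3 growing wild-type strains. Its ratios were 0.20 and 0.00 in untagged, 0.52 and 0.60 in H3-HA, 0.30 and 0.47 in H3-T7 and 0.35 and 0.47 in starved wild type, so starved and tagged cells overlapped. The difference from the 3 growing strains was 0.07 ± 0.10 (95% interval -0.15 to 0.28, limma adjusted p = 0.565), and against the untagged strain alone it was 0.31 (limma adjusted p = 0.0299). In the deletion strains TSA1 was higher by 0.61 ± 0.06 (1.52-fold, limma adjusted p = 4.23e-09) under loess, but lower by print-tip loess (-0.94) and by median centring (-0.68). In wild type the same scalings gave -1.03 and -0.80, both called lower, whereas the deposited ratios gave 0.44, called higher. No direction is therefore given for TSA1 on starvation.

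PRX1, the mitochondrial one-cysteine peroxiredoxin, rose in every starvation comparison. It stood at 0.27 and 0.30 in untagged, 0.76 and 0.85 in H3-HA, 0.62 and 0.73 in H3-T7 and 1.25 and 1.40 in starved wild type, in that order without overlap between untagged, tagged and starved arrays. The difference was 0.74 ± 0.10 in wild type (1.67-fold, limma adjusted p = 2.07e-06) and 1.34 ± 0.06 in the deletion strains (limma adjusted p = 1.43e-14). Its net signal in the growing deletion arrays, 14 to 28.5, again lay within that of the probes for deleted genes, so no fold is given there, and the difference was 1.96 with the smaller offset.

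After loess each deletion genotype showed the same direction on its own. Of 50 tests (10 genes in 5 genotypes) 49 were called higher, where 41.8% of all probes were called higher in hat1Δ, 41.3% in hat2Δ, 41.4% in hif1Δ, 41.9% in hat1Δhif1Δ and 41.5% in hat2Δhif1Δ. The exception was TSA1 in hat1Δhif1Δ, at 0.23 (limma adjusted p = 0.0978). These directions depend on the scaling for TSA1 and SOD1, which over the 5 genotypes together were lower in starved cells with median centring (-0.68 and -0.30), as was TSA1 with print-tip loess (-0.94). CTA1 differences ran from 4.06 to 4.21, SOD2 differences from 2.06 to 2.16 and SOD1 differences from 0.79 to 0.86. The 2 double deletions, whose arrays all belong to the set with ATG33 signal, gave 4.13 for CTA1, 3.53 for CTT1, 3.27 for GPX1, 2.07 for SOD2 and 0.88 for TSA2, each called.

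The starvation difference itself was compared between the deletion strains and RITE wild type, a comparison added after the values were seen. With the growing level of wild type taken from the untagged strain alone, 1 of 10 genes passed, where 11% of all probes were called in either direction. It was TRX2, whose difference was larger in the deletion strains by 0.52 ± 0.11 (limma adjusted p = 0.00551) and was called under 4 of 6 scalings. TSA2 (0.17 ± 0.11, limma adjusted p = 0.382) and CTT1 (0.42 ± 0.24, limma adjusted p = 0.302) did not pass, nor did the other 7 (0.05 to 0.30). With the mean of all 3 growing RITE strains, tagged ones included, 9 of 10 passed, among them TSA2 at 0.94 ± 0.09, where 36.3% of all probes were called. The untagged growing strain and the deletion strains still differ in background, mating type and array set, which cannot be told apart from the deletions.

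Growing cells with a tag on H3 had higher levels of 9 of these mRNAs than untagged growing cells, with either tag. Of 20 tests 18 were called higher and none lower, where 24% of all probe values were called higher and 17.4% lower over both tags, which share the untagged arrays. TSA2 differed most, by 1.25 ± 0.08 with H3-HA (2.38-fold, limma adjusted p = 4.06e-07) and by 1.07 ± 0.08 with H3-T7 (2.09-fold, limma adjusted p = 2.08e-06). CTT1 followed, at 0.95 ± 0.21 (limma adjusted p = 0.00366) and 1.10 ± 0.21 (limma adjusted p = 0.00194). GRX2 was higher by 0.62 and 0.62, TRX2 by 0.54 and 0.64, SOD2 by 0.56 and 0.55, and CTA1 by 0.58 and 0.51. PRX1 (0.52 and 0.39), TSA1 (0.45 and 0.28) and GPX1 (0.31 and 0.30) were called with smaller differences. CTA1 and PRX1 were dim in untagged cells, with net signals of 38.4 to 42.6 and 50.2 to 55.9. Probes for deleted genes gave up to 51.9, so the sizes for these 2 genes are uncertain. Over 6 scalings CTA1 ran from 0.57 to 0.92 with H3-HA and from 0.49 to 0.86 with H3-T7. PRX1 ran from 0.51 to 0.76 and from 0.39 to 0.62. SOD1 was 0.09 in both and did not pass (95% interval -0.05 to 0.23 for H3-HA). Under median centring TSA1 lost its call with both tags (0.13 and -0.03), TRX2 its call with H3-HA (0.24), and SOD1 was -0.19 and -0.18. With 1 fit of all 36 arrays GPX1 lost its call with H3-HA and H3-T7 (limma adjusted p = 0.172 and 0.224). TSA1 lost its call with H3-T7 in that fit (limma adjusted p = 0.153). CTT1 rested on single arrays: without untagged replicate b it was 0.60 (limma adjusted p = 0.106) and 0.75 (limma adjusted p = 0.0584), and without H3-HA replicate b it was 0.46 with that tag (limma adjusted p = 0.0798). TSA1 with H3-T7 was 0.12 without untagged replicate b and 0.17 without H3-T7 replicate b, and GPX1 was 0.16 with H3-HA without its replicate b and 0.15 with H3-T7 without its replicate a, each no longer called.

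The tags themselves were not told apart by these genes. In H3-HA against H3-T7, a comparison added after the values were seen, limma called 0 of 10 (2 at an unadjusted p below 0.05), where 3.29% of all probes were called. The widest differences were 0.19 for TSA2 (95% interval 0.01 to 0.36, limma adjusted p = 0.239) and 0.17 for TSA1 (limma adjusted p = 0.278), and PRX1, at 0.13, had the lowest adjusted p (0.0739 by limma). Of the 7 starvation markers 6 were also higher with each tag (median 1.08 with H3-HA and 0.87 with H3-T7), and of 4 growth markers 2 were lower with H3-HA and 0 with H3-T7, which became 3 or 4 and 0 to 3 under 5 other scalings. The part of these markers in the result was not tested. Beside the markers, SRX1, the sulfiredoxin that reactivates oxidised peroxiredoxins, was 0.85 and 0.90 higher with the tags (limma adjusted p = 4.87e-06 and 5.35e-06). Starved wild type was lower than the mean of the 3 growing RITE strains, tagged ones included (-0.76, limma adjusted p = 4.23e-08). Levels of SRX1 were -0.15 to 0.33 on the 16 starved arrays, 0.09 and 0.13 on the untagged growing arrays and 0.88 to 1.10 on the 4 tagged ones. SRX1 was picked out after its values were seen.

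**Figure D3:**
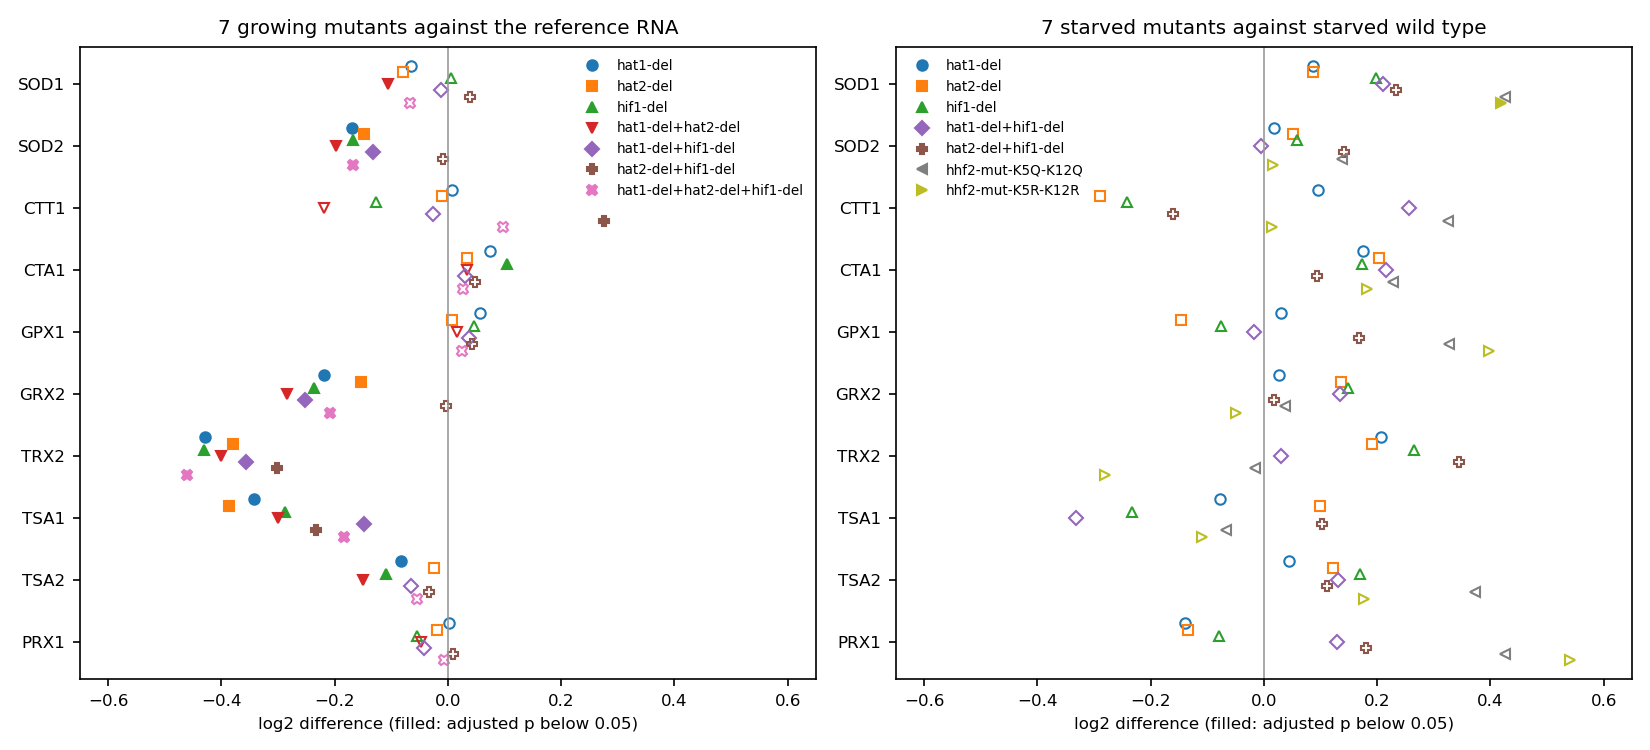
Log2 differences (horizontal axes) of the 10 genes in 7 growing deletion strains against the reference RNA (left) and in 7 starved mutants against starved wild type (right), with 1 symbol per strain, filled where the adjusted p was below 0.05. On the left TRX2 lies between -0.46 and -0.30 in all 7 strains. On the right 1 of 70 symbols is filled, SOD1 in H4K5,12R at 0.42.

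Loss of NuB4 subunits was next examined in growing cells. Against the reference RNA, 30 of 70 values were called lower and 2 higher, where 22.6% of all probe values were called lower and 24.1% higher. TRX2 was lower in all 7 strains, by differences of -0.46 in the triple deletion to -0.30 in hat2Δhif1Δ (SE 0.05, limma adjusted p = 2.69e-05 to 0.000545), and its 14 arrays lay between -0.54 and -0.26. TSA1 was lower in all 7, between -0.39 in hat2Δ and -0.15 in hat1Δhif1Δ (SE 0.04). TRX2 was called lower in all 7 strains under each of 6 scalings, and TSA1 in all 7 under 4 of them, in 6 with the deposited ratios and in 5 with print-tip loess. SOD2 (-0.20 to -0.01) and GRX2 (-0.28 to -0.0039) were each called lower in 6 strains, the exception being hat2Δhif1Δ for both. TSA2 was called lower in 3 strains. SOD1 was called lower in 1, hat1Δhat2Δ at -0.11 (limma adjusted p = 0.0468), a call lost in 11 of 22 alternatives (-0.19 to -0.05), and with the deposited ratios SOD1 was called higher in 1 strain and lower in 0. The 2 genes called higher were CTT1 in hat2Δhif1Δ (0.28, limma adjusted p = 0.0342), which was 0.05 without replicate a, and CTA1 in hif1Δ (0.10, limma adjusted p = 0.0101). The arrays of the latter read 0.17 and 0.04 from a dim probe, and its call was lost in 4 of 22 alternatives, among them median centring (0.01, limma adjusted p = 0.881), 1 fit of all arrays (limma adjusted p = 0.391) and the omission of replicate a (0.05, limma adjusted p = 0.345). GPX1 and PRX1 were within -0.06 and 0.06 in all 7 strains and were not called under the main scaling. PRX1 was called lower in 3 strains with the smaller offset and in 2 with median centring. GPX1 was called higher in 1 strain with print-tip loess.

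All 14 of these arrays belong to 1 array set and share a reference, so a gene that differs between the reference RNA and all 7 strains cannot be told apart from an effect of the deletions. Strains with and without 1 deletion on 3 matched backgrounds were therefore compared directly. This removes the reference, but each background already lacked another NuB4 subunit. An effect shared by loss of any subunit cancels in these comparisons, so they cannot decide whether such an effect is present. In these 30 tests limma called 0 (6 at an unadjusted p below 0.05), where 1.68% of all probe values were called. For TRX2 the effects of deleting HAT1, HAT2 and HIF1 were -0.04, 0.02 and 0.03 (SE 0.04), with 95% intervals inside -0.13 and 0.12. The nearest to a call were GRX2 on loss of HAT1 (-0.12 ± 0.03, limma adjusted p = 0.061) and TSA1 on loss of HIF1 (0.15 ± 0.03, limma adjusted p = 0.0832). CTT1 on loss of HIF1 was 0.19 ± 0.08 (limma adjusted p = 0.268).

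In starved cells the mutants stayed close to starved wild type. Of 70 values, which ran from -0.33 to 0.54 with 52 above 0, limma called 1 (10 at an unadjusted p below 0.05), where 0.631% of all probe values, and 1.61% of probes in H4K5,12R in the higher direction, were called. It was SOD1 in H4K5,12R, which read 1.00 and 1.11 against 0.55 and 0.73 in starved wild type, without overlap. The difference was 0.42 ± 0.09 (1.34-fold, limma adjusted p = 0.0366). SOD1 in H4K5,12Q was 0.91 and 1.22, a difference of 0.43 ± 0.09 that did not pass (limma adjusted p = 0.068). The call in H4K5,12R was lost without either of its own replicates (limma adjusted p = 0.165 and 0.158) or either wild-type replicate (limma adjusted p = 0.145 and 0.195), and when 1 of the other arrays of hat2Δ or of a double deletion was left out (limma adjusted p = 0.0529 to 0.065). The H4 mutants and the double deletions belong to the array set with ATG33 signal and starved wild type to the other, so that strain and array set cannot be told apart. SOD1 was 0.21 and 0.23 higher in the double deletions of that set, and 0.09, 0.09 and 0.20 in hat1Δ, hat2Δ and hif1Δ of the wild-type set, none called.

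PRX1 and GPX1 were highest in the H4 mutants too, without a call. PRX1 read 1.70 and 1.80 in H4K5,12Q and 1.70 and 2.03 in H4K5,12R, against 1.25 and 1.40 in wild type (differences 0.43 and 0.54, limma adjusted p = 0.247 and 0.11). GPX1 differed by 0.33 and 0.40 (limma adjusted p = 0.444 and 0.291). CTT1 and CTA1 differed from wild type by -0.29 to 0.33 and by 0.09 to 0.23. For both catalases these differences were small beside those between states. Within 1 array set, H4K5,12Q against H4K5,12R gave 0 of 10 calls by limma (1 at an unadjusted p below 0.05), where 0% of all probes were called. The widest of these differences was 0.31 for CTT1 (95% interval -0.09 to 0.71).

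Whether loss of HIF1 acted differently in the 2 states was tested on the hat1Δ and hat2Δ backgrounds. The growing arrays of this test all belong to the set with ATG33 signal. Among the starved ones the double deletions belong to that set and hat1Δ and hat2Δ to the other. In starved cells loss of HIF1 and array set thus cannot be told apart, and the test cannot separate them. Limma called 0 of 10 genes (2 at an unadjusted p below 0.05), where 0.0157% of all probes were called. The widest values were 0.30 for PRX1 (95% interval 0.04 to 0.56) and -0.30 for TSA1 (95% interval -0.56 to -0.04), both with a limma adjusted p of 0.556.

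**Figure D4:**
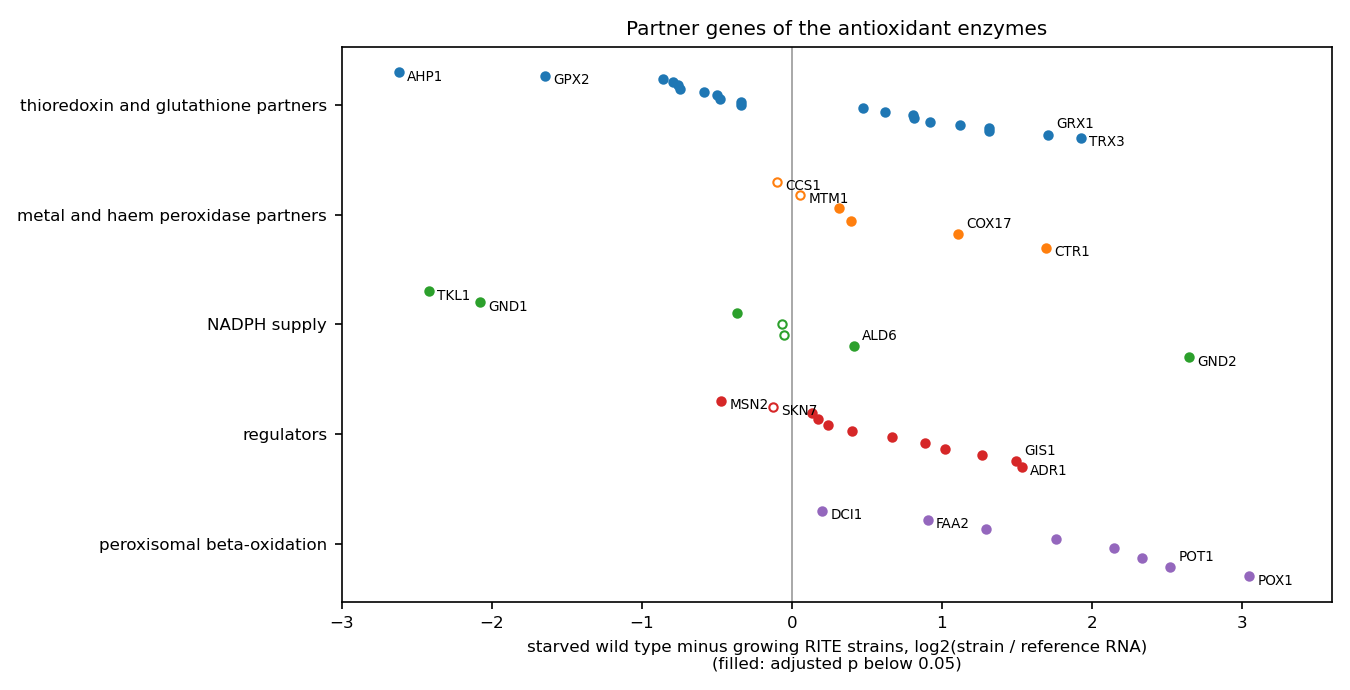
Difference between starved wild type and the 3 growing RITE strains in log2(strain / reference RNA) (horizontal axis) for the genes of 5 partner lists, 1 point per gene, filled where the adjusted p was below 0.05. The 2 highest and 2 lowest genes of each list are named, from POX1 at 3.05 to AHP1 at -2.62.

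Genes that work with these enzymes were counted next, and their counts are read against the 41.8% of all probes called higher and 40% called lower in the same comparison. Of 21 partners in the thioredoxin and glutathione systems, 10 rose and 11 fell in starved wild type (median -0.34, beside 0.01 over all probes), and with median centring the split was 10 and 11 as well. TRX3, the mitochondrial thioredoxin (1.92 ± 0.11, 3.80-fold), and GRX1, the paralog of GRX2 (1.71 ± 0.07, 3.27-fold), rose most. AHP1, a peroxiredoxin for alkyl hydroperoxides, fell most (-2.62 ± 0.22, limma adjusted p = 1.86e-09), followed by GPX2, a paralog of GPX1 (-1.65 ± 0.11, limma adjusted p = 4.76e-11). Hence members of 1 enzyme family moved apart: GPX1 rose where GPX2 fell, and PRX1 rose where AHP1 fell. These 4 directions were the same under all 6 scalings.

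Of 8 genes of peroxisomal fatty acid oxidation, the pathway whose peroxide Cta1 removes, 8 rose (median 1.95). POX1, the acyl-CoA oxidase that makes this peroxide, was 3.05 ± 0.15 higher (8.27-fold) and POT1, the thiolase, 2.52 ± 0.11 (5.73-fold). FAA2 (0.91) and DCI1 (0.20) were the lowest, and DCI1 lost its call under 1 of 6 scalings. Of 6 genes for metal supply and haem peroxidase, 4 rose and 0 fell (41.8% and 40% of all probes), led by CTR1, the plasma membrane copper transporter (1.69 ± 0.23, 3.23-fold), and COX17 (1.11 ± 0.10), a copper chaperone for cytochrome oxidase. CCS1, the copper chaperone of Sod1, was -0.10 ± 0.06 (limma adjusted p = 0.139), and MTM1, needed for Sod2 activity, was 0.06 ± 0.04 (limma adjusted p = 0.152).

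Of 7 genes that supply NADPH, 2 rose and 3 fell, beside 41.8% and 40% of all probes. Among them were GND2, the minor isozyme of 6-phosphogluconate dehydrogenase (2.65 ± 0.13, 6.26-fold higher), and GND1, the major isozyme (-2.08 ± 0.13, limma adjusted p = 1.81e-11). ALD6, an aldehyde dehydrogenase, was 0.41 ± 0.11 higher (limma adjusted p = 0.0014), and TKL1, a transketolase, had the lowest value (-2.42 ± 0.13, limma adjusted p = 2.57e-12). Of 12 regulators 10 rose and 1 fell, beside the same shares of all probes. ADR1, the activator of peroxisomal genes (1.53 ± 0.10), and GIS1, a factor of the starvation response (1.49 ± 0.11), were highest. SKN7, which acts with Yap1 on TRX2 and TSA1, was -0.13 ± 0.07 (limma adjusted p = 0.11), and MSN2, a general stress factor, fell (-0.47 ± 0.06, limma adjusted p = 1.31e-06). In the deletion strains the 5 lists had 12, 8, 4, 3 and 9 genes higher, in the order in which they are given here, and 9, 0, 1, 4 and 3 lower, beside 46.5% and 45.3% of all probes.

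The pattern over the 18 groups was also matched to other genes. Among 5077 candidates the profile of CTT1 was most like those of DDR2 (r = 0.998), ECM4 (r = 0.997) and SOL4 (r = 0.997), and that of CTA1 most like CRS5 (r = 0.999), YJL163C (r = 0.999) and YLR345W (r = 0.999). SOD1 was nearest to PKP2, SHY1 and REC107 (r = 0.991, 0.990 and 0.990), and TSA1 to PRM1, UGA1 and YHL037C (r = 0.956, 0.950 and 0.945). Most of the variance is between states, and whether the reference RNA was the same in both array sets was not tested. These values therefore describe likeness only. Among the 10 genes, correlations of TSA1 and TSA2 with the other 8 were 0.687 to 0.865, with each other 0.900, and those among the other 8 were 0.938 to 0.997.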

How the data were processed

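RNA of 18 yeast strain groups was compared with a common reference on 36 two-colour arrays with 15552 spots each, 2 arrays a group with swapped dyes. The intensity files were deposited by the authors as scanner output, with spot and local background intensities that had not been normalized. The log2 ratios of the authors' value table were normalized before they were deposited (limma 2.12.0 is listed in the submitters' processing notes), and they entered only as an alternative, with column medians of -0.001 to 0.04 and a correlation of 0.857 to 0.964 with the raw scanner ratios. A further table of the authors' own log2 changes and p-values was deposited and was not used. No column lacked a sample (0 columns).

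In R 4.3.3 with limma 3.58.1, mean spot intensities were corrected for background by normexp with an offset of 50, a loess curve was removed from every array, and values were expressed as log2 of strain over reference, and the 2 spots of a probe were averaged. Linear models across all 6388 yeast probes (5326 with a gene symbol, 1062 without) held the strain groups and a dye effect for each experiment, with empirical Bayes moderation. The Benjamini-Hochberg adjustment ran across the full probe set, and an adjusted p below 0.05 was called. Comparisons between states were fitted on all 36 arrays. Those among growing RITE strains were fitted on the 14 growing deletion and 6 growing RITE arrays together. All others were fitted on the arrays of their experiment. The number of arrays, 2 a group, limits the precision.

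The dye orientation was taken from the labels, in which replicate a has the reference in Cy5. It coincides with the replicate letter, so the dye effect is also the replicate block. Deviations of same-lettered arrays from their group means correlated by 0.357 to 0.772 in the growing deletion strains, 0.145 to 0.529 in the growing RITE strains and -0.217 to 0.76 in starved strains. Replicate arrays correlated by 0.68 to 0.818, 0.916 to 0.963 and 0.961 to 0.983 across probes in these 3 sets, and 94.5% to 99.5% of probes were more than 2 SD above background. All 10 genes were above background by this measure on every array, and 0 of their spots were saturated. Passing it does not show that a gene was expressed. In the growing deletion arrays CTA1 (net signal 24.9 to 46.8) and PRX1 (14 to 28.5) lay within the range of probes for deleted genes (8.1 to 51.9).

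The genes and the partner lists were chosen with earlier results of these data known. Of each partner list the genes with the 2 highest and 2 lowest values in starved wild type against growing RITE strains are named. Likeness was Pearson's r over the 18 group means. Alternatives were other background corrections and normalizations, the deposited ratios, a filter on probes below the 25th percentile of intensity, other sets of arrays, no dye effect and each array left out in turn. An offset of 10, the pixel median of a spot, and the comparisons of the tags with each other and of starvation differences between strain sets were added after the data were seen. The model was tested on simulated data. Gene names were taken from RefSeq annotation, and no sequences or coordinates were used.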

Additional observations from a re-analysis of the deposited data

Results flagged for a closer look

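The difference between starved and growing cells was itself compared between 5 deletion genotypes and RITE wild type, in 1 limma fit with p-values adjusted over all probes. For 9 of 10 genes the test of the difference was passed, where 36.3% of all probes were called in either direction. The excess in the deletion strains, in log2 units, was 0.2922 for SOD1 (limma adjusted p = 0.00411), 0.6322 for SOD2 (limma adjusted p = 1.71e-05), 1.1002 for CTT1 (limma adjusted p = 0.000358) and 0.5062 for CTA1 (limma adjusted p = 0.000747). It was 0.4797 for GRX2 (limma adjusted p = 0.00237), 0.9106 for TRX2 (limma adjusted p = 6.88e-07), 0.5401 for TSA1 (limma adjusted p = 0.00153), 0.9397 for TSA2 (limma adjusted p = 4.19e-07) and 0.6014 for PRX1 (limma adjusted p = 0.000619). The comparison was chosen after the values were seen. Under 6 scalings SOD1 ran from -0.05 to 0.29 and passed in 3, TSA1 ran from 0.09 to 0.54 and passed in 4, and the other 7 passed in all 6. Of these 7, CTA1 ran from 0.48 to 0.78 and PRX1 from 0.60 to 1.11. In the growing deletion arrays both probes lay within the net signal of probes for deleted genes, so their sizes are uncertain. In the same comparison 6 of 7 starvation markers were also higher (median 0.91), and the growing level of RITE wild type included 4 arrays of tagged strains. The part of the markers in the result was not tested. With the growing level taken from the untagged strain alone, the excess passed for 1 of 10 genes, where 11% of all probes were called in either direction. It was TRX2 at 0.5183 (limma adjusted p = 0.00551), which ran from 0.19 to 0.55 and passed in 4 of 6 scalings. In that comparison 2 of the 7 markers were higher (median 0.21).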

How the results depend on the processing

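The counts of genes called in either direction with state (8 and 10 of 10) and with the H3 tags (18 of 20) stayed within 1.5 times their value under every alternative run. For state these totals include genes called lower. With print-tip loess 8 were called higher and 2 lower in wild type, and 9 and 1 in the deletion strains. With median centring the counts were 7 and 2, and 8 and 2. Of 70 values in starved mutants 1 was called, and 0 were with print-tip loess, the deposited ratios, pixel medians or no replicate block, 5 with 1 fit of all 36 arrays, and 0 to 2 when an array was left out. Of 70 values in growing deletion strains 32 were called, and 14 with 1 fit of all 36 arrays. On matched backgrounds 0 were called, 5 with median centring and 0 to 2 when an array was left out. Without the replicate block SOD1 in H4K5,12R kept its value of 0.42 (limma adjusted p = 0.224).

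Direction changed for SOD1, TSA1 and TSA2. In starved wild type TSA1 was -1.0326 with print-tip loess, -0.8042 with median centring, -0.1433 against H3-HA alone, -0.1057 with an offset of 10, and -0.0154 to 0.1458 without 1 starved wild-type array. TSA2 was 0.0882 with median centring, 0.7206 against the untagged strain alone, 0.0303 with pixel medians, and -0.1299 to 0.0276 without 1 array. In the deletion strains TSA1 was -0.9402 with print-tip loess and -0.6841 with median centring. With median centring SOD1 was -0.3026 in wild type, -0.2993 in the deletion strains, -0.1882 with H3-HA and -0.1837 with H3-T7, and TSA1 was -0.027 with H3-T7. SOD1 with H3-T7 was -0.0013 to 0.1894 without 1 array. Of 1535 values of single genes under alternatives, 1416 kept direction and side of the threshold. Median centring also moved the share of higher among all called probes from 59.5% to 46.4% with H3-T7, from 56.7% to 46.9% with H3-HA, and on matched backgrounds from 61.9% to 27% on loss of HIF1 and from 49.3% to 60.3% on loss of HAT1. The filter on dim probes left out PRX1.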
